A study of Homo sapiens with 12 samples.

Results

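The aminoacyl-tRNA synthetases were described here in HLE cells, a human hepatocellular carcinoma line, as a set of 39 genes chosen by function: 23 cytosolic genes, made up of 20 genes for synthetases or their subunits and the 3 scaffold proteins AIMP1, AIMP2 and EEF1E1, and 16 genes for mitochondrial synthetases. They were matched by Entrez identifier to a deposited table of 26258 genes, and all 39 were found. The rule itself used no expression value. All cells had been transfected with siRNA and were given either the vehicle DMSO or Sorafenib, a kinase inhibitor used against liver cancer, at 5 µM by the labels (the study's text names a different dose for this experiment). The siRNAs were a control (siCtrl), a combination against YAP and TAZ (siY/T, genes YAP1 and WWTR1), or one against the transcription factor ATF4 (siATF4). This gave 6 groups of 2 libraries each, 12 in all: siCtrl DMSO, siY/T DMSO, siATF4 DMSO, siCtrl Sorafenib, siY/T Sorafenib and siATF4 Sorafenib. All libraries came from 1 cell line with transient knockdowns, the labels give no time of exposure (the study's text does), and nothing in the labels says that the libraries of a group came from separate cultures, so P values measure only the spread between these libraries.

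Libraries held 41408348 to 53619732 counted reads, and values were reads scaled to a library total of 1000000 (CPM), in which 1 read was worth 0.0186 to 0.0241 CPM. Sampling noise alone did not account for the differences within any group, which were largest between the siY/T DMSO libraries, with a chi-square per gene of 20.7 against 2.98 in siCtrl DMSO. The hepatocyte markers ALB, AFP, APOA1, APOB, TTR, HNF4A and TF stayed at or below 0.117 CPM in every library and SERPINA1 at or below 2.32 CPM, while the epithelial markers differed: KRT8 stood at 655 to 2558 CPM and KRT18 at 312 to 1089, EPCAM at 0.150 to 0.701 and CDH1 at 0.0396 to 7.93. Of the mesenchymal markers VIM stood at 1952 to 2916 CPM, FN1 at 18.8 to 79.6 and ZEB1 at 7.84 to 27.0, and PTPRC, PECAM1 and HBB, markers of leukocytes, endothelium and red cells, stayed at or below 0.0403 CPM. KRT8 and KRT18 were lower in siY/T DMSO, at 684 and 655 CPM and at 339 and 320 CPM, than in siCtrl DMSO, at 2284 and 2205 CPM and at 1047 and 1017 CPM. In siATF4 DMSO KRT8 was also lower, at 1129 and 1215 CPM, while KRT18 stood at 1011 and 1041 CPM. The part of these 2 genes in the siY/T and siATF4 results was not tested. The targeted genes were low where the labels say so. ATF4 stood at 248 and 249 CPM in siCtrl DMSO, 96.2 and 101 in siATF4 DMSO, 484 and 492 in siCtrl Sorafenib and 84.5 and 90.6 in siATF4 Sorafenib. YAP1 stood at 277 and 280 CPM in siCtrl DMSO and at 46.6 and 57.7 in siY/T DMSO, and WWTR1 at 170 and 173 against 53.3 and 68.6. ATF4 was itself lower in siY/T DMSO, at 207 and 197 CPM, than in siCtrl DMSO. It was also lower in siY/T Sorafenib, at 317 and 314 CPM, than in siCtrl Sorafenib. WWTR1 was lower in siATF4 DMSO, at 107 and 104 CPM, than in siCtrl DMSO. The part of the lower ATF4 or WWTR1 in the results that follow was not tested.

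Aminoacyl-tRNA synthetases join each amino acid to its own tRNA and so supply the ribosome. Most amino acids are served by separate nuclear genes for the cytosol and for the mitochondrion, and several cytosolic enzymes sit in a large multisynthetase complex held together by AIMP1, AIMP2 and EEF1E1. When tRNAs lack their amino acid, the kinase GCN2 phosphorylates eIF2α and translation of ATF4 rises, and ATF4 is known to induce many cytosolic synthetase genes through elements related to TGATGNAA, where C/EBP and ATF proteins bind together. YAP and TAZ are the transcriptional coactivators restrained by the Hippo pathway.

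To show where such letters lie, promoter windows of 300 bases, from 250 before the gene start, were read from RefSeq on GRCh38.p14 and searched on both strands for TGATGNAA, whose complement reads TTNCATCA. Windows were found for 33 of the 39 members, 19 cytosolic and 14 mitochondrial. The motif was in 7 of the 19 cytosolic genes (36.8%) and in 1 of the 14 mitochondrial genes (7.14%), while 1217 of all 27305 genes with a window (4.46%) held it. By window the shares were 7 of 27 cytosolic (25.9%), 1 of 18 mitochondrial (5.56%) and 1270 of all 35116 windows (3.62%). The 8 matches are shown with the motif in capitals because the results below are split by them, each read 5′ to 3′ on the strand of its gene, with the position of the first motif base relative to the gene start.
AARS1, chr16:70289675-70289704, minus strand, at -187: ttttctcgcagTTGCATCAgccaagttaga
CARS1, chr11:3057407-3057436, minus strand, at -2: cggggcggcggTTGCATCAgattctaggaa
GARS1, chr7:30594834-30594863, plus strand, at -33: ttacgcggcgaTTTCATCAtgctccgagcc
IARS1, chr9:92293692-92293721, minus strand, at -13: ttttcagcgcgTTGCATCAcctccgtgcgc
MARS1, chr12:57488053-57488082, plus strand, at -4: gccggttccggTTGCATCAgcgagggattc
NARS1, chr18:57621804-57621833, minus strand, at 15: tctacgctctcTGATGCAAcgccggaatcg
TARS1, chr5:33440956-33440985, plus strand, at 3: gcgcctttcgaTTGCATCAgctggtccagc
YARS2, chr12:32756076-32756105, minus strand, at -197: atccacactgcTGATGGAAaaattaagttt
A match is a description of letters, not of binding, and no match says only that these letters are not in this window.

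All 39 members passed the filter on low values, at least 1 CPM in 2 libraries, with 13515 genes tested. Per kilobase of the canonical transcript, levels in siCtrl DMSO had a median of 83.6 CPM/kb over the cytosolic genes (range 0.925 to 144) and 12.7 CPM/kb over the mitochondrial genes (range 2.53 to 51.4). GARS1, the glycyl-tRNA synthetase whose gene also makes the mitochondrial enzyme, was the highest at 144 CPM/kb, followed by AARS1 (alanine) at 135, MARS1 (methionine) at 130, KARS1 (lysine, also both compartments) at 120 and YARS1 (tyrosine) at 115 CPM/kb. TARS3, a second cytosolic threonyl-tRNA synthetase gene, was the lowest at 0.925 CPM/kb, and PARS2, the mitochondrial prolyl-tRNA synthetase, was the lowest of its compartment at 2.53 CPM/kb. The cytosolic genes together took 5112 and 5086 CPM of the siCtrl DMSO libraries and the mitochondrial genes 749 and 752 CPM.

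With siY/T in untreated cells the cytosolic synthetase genes were mostly lower, and the mitochondrial set was centred near 0. The study called genes with edgeR at an unadjusted P under 0.05 with a log2 fold change of 0.58 or more in size. With those thresholds applied to limma, 6 of the 23 cytosolic genes fell in siY/T DMSO against siCtrl DMSO and none rose, where 3.61% of all genes fell and 11.0% rose. None of the 16 mitochondrial genes passed by limma, edgeR or DESeq2, and 9 had an unadjusted limma P under 0.05. The share of all genes with such a P alone was not counted, here or in the comparisons below. On adjusted P alone, 18 cytosolic genes were lower and 1 higher, against 22.8% and 37.3% of all genes, and 5 mitochondrial genes were lower and 4 higher. In 20 of the 23 cytosolic genes both siY/T libraries lay below both siCtrl libraries, and in 1 above. Of the 16 mitochondrial genes 6 lay below and 7 above in this way. The share of all genes that did so was not counted, so these counts have no background. The median log2 fold change was -0.42 over the cytosolic genes, 0.02 over the mitochondrial genes and 0.07 over all genes tested. Fold changes throughout are on the log2(CPM + 0.5) scale, with 2 libraries a group. Their standard errors (SE) and P values come from 1 limma fit of all 12 libraries. That fit shares 1 moderated estimate of each gene's spread over the 6 groups. They therefore do not measure the wider differences between the siY/T DMSO libraries by themselves. Adjusted P values are limma's with Benjamini-Hochberg adjustment over all 13515 genes.

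**Figure D1:**
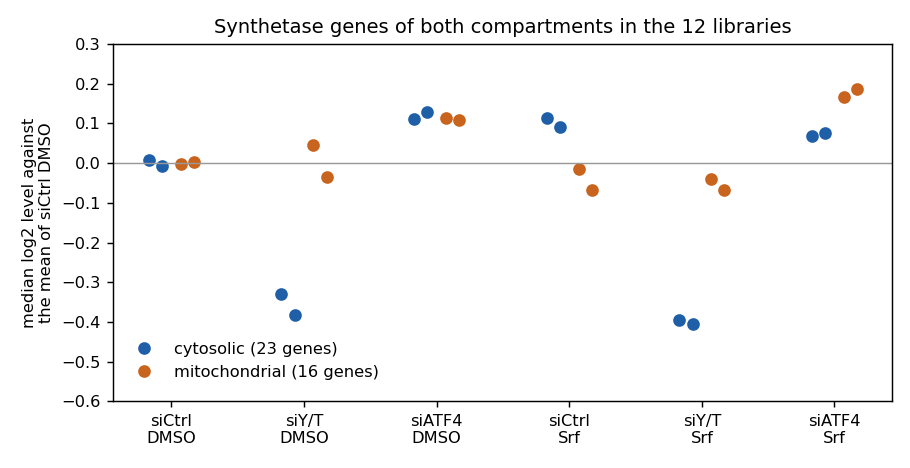
Median over the 23 cytosolic (blue) and the 16 mitochondrial (orange) genes of the log2 level of each library against the mean of the siCtrl DMSO libraries. Each point is 1 library. The cytosolic medians of all 4 siY/T libraries lie between -0.40 and -0.33, below those of every other library, while the mitochondrial medians of these 4 libraries lie between -0.07 and 0.04.

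The gene with the largest fall was YARS1, the tyrosyl-tRNA synthetase (GRCh37 chr1:33240838-33283632, minus strand). It stood at 283 and 281 CPM in siCtrl DMSO and at 174 and 157 CPM in siY/T DMSO, a log2 fold change of -0.77 (SE 0.06, limma adjusted P = 1.35e-07). EPRS1, which joins both glutamate and proline to their tRNAs and sits in the complex, stood at 355 and 363 CPM against 198 and 244 (log2 fold change -0.70, SE 0.07, limma adjusted P = 2.66e-06). The groups did not overlap in either gene, but the EPRS1 libraries of siY/T DMSO were far apart, and without the lower of them, replicate 1, the log2 fold change was -0.55 and the call was lost. GARS1 stood at 354 and 350 CPM in siCtrl DMSO and at 237 and 208 CPM in siY/T DMSO (log2 fold change -0.66, SE 0.06, limma adjusted P = 5.97e-07). Without siY/T DMSO replicate 2 its value was -0.57, which also misses the fold threshold.

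IARS1 (isoleucine) and MARS1 (methionine), both complex enzymes, fell by 0.62 and 0.60 on the log2 scale, and MARS1 lost its call without siY/T DMSO replicate 2 (-0.53). TARS3 stood at 2.89 and 3.55 CPM in siCtrl DMSO and at 1.89 and 1.79 CPM in siY/T DMSO, a log2 fold change of -0.66 (SE 0.11, limma adjusted P = 0.000229). This is a low gene, and without siCtrl DMSO replicate 2 or with a pseudocount of 1 its log2 fold change lay between -0.57 and -0.54, short of the threshold. QARS1, the glutaminyl-tRNA synthetase of the complex, was the exception among the cytosolic genes: it stood at 234 CPM in both siCtrl DMSO libraries and at 324 and 304 CPM in siY/T DMSO (log2 fold change 0.42, SE 0.04, limma adjusted P = 2.82e-06, short of the fold threshold). By assembly, 6 of 7 complex enzymes, 11 of 13 free enzymes and subunits and 1 of 3 scaffold proteins were lower on adjusted P.

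Sorafenib-treated cells gave a like list. In siY/T Sorafenib against siCtrl Sorafenib 5 cytosolic genes fell and 1 rose, where 3.84% of all genes fell and 6.11% rose, and no mitochondrial gene passed by limma, edgeR or DESeq2, 6 having an unadjusted limma P under 0.05. On adjusted P alone 16 cytosolic genes were lower and 2 higher, against 18.8% and 30.2% of all genes, and the medians were -0.26 (cytosolic), 0.05 (mitochondrial) and 0.05 (all genes). GARS1, IARS1, MARS1 and YARS1 fell in DMSO and in Sorafenib alike. CARS1, the cysteinyl-tRNA synthetase (GRCh37 chr11:3022152-3078843, minus strand), fell in Sorafenib, from 168 and 176 CPM to 106 and 98.1 CPM (log2 fold change -0.75, SE 0.06, limma adjusted P = 7.51e-07).

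MARS1 stood at 435 and 456 CPM in siCtrl Sorafenib and at 275 and 255 CPM in siY/T Sorafenib (log2 fold change -0.75, SE 0.06, limma adjusted P = 2.65e-07). YARS1 stood at 316 and 328 CPM against 206 and 188 (log2 fold change -0.71), and GARS1 at 412 and 426 CPM against 266 and 246 (log2 fold change -0.71). The groups did not overlap in these genes. IARS1 fell by 0.62 on the log2 scale, and without siY/T Sorafenib replicate 2 its value of -0.55 misses the fold threshold. AARS1 stood just short of the threshold, at 871 and 873 CPM in siCtrl Sorafenib and 614 and 569 CPM in siY/T Sorafenib (log2 fold change -0.56, SE 0.05, limma adjusted P = 8.53e-07), and with TMM scaling it passed with -0.62. EEF1E1, a scaffold of the complex, went the other way, from 48.5 and 44.7 CPM to 73.3 and 76.1 CPM (log2 fold change 0.68, SE 0.05, limma adjusted P = 3.16e-07). Its exons are shared on the same strand with the readthrough transcript EEF1E1-BLOC1S5, so reads of both cannot be told apart.

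**Figure D2:**
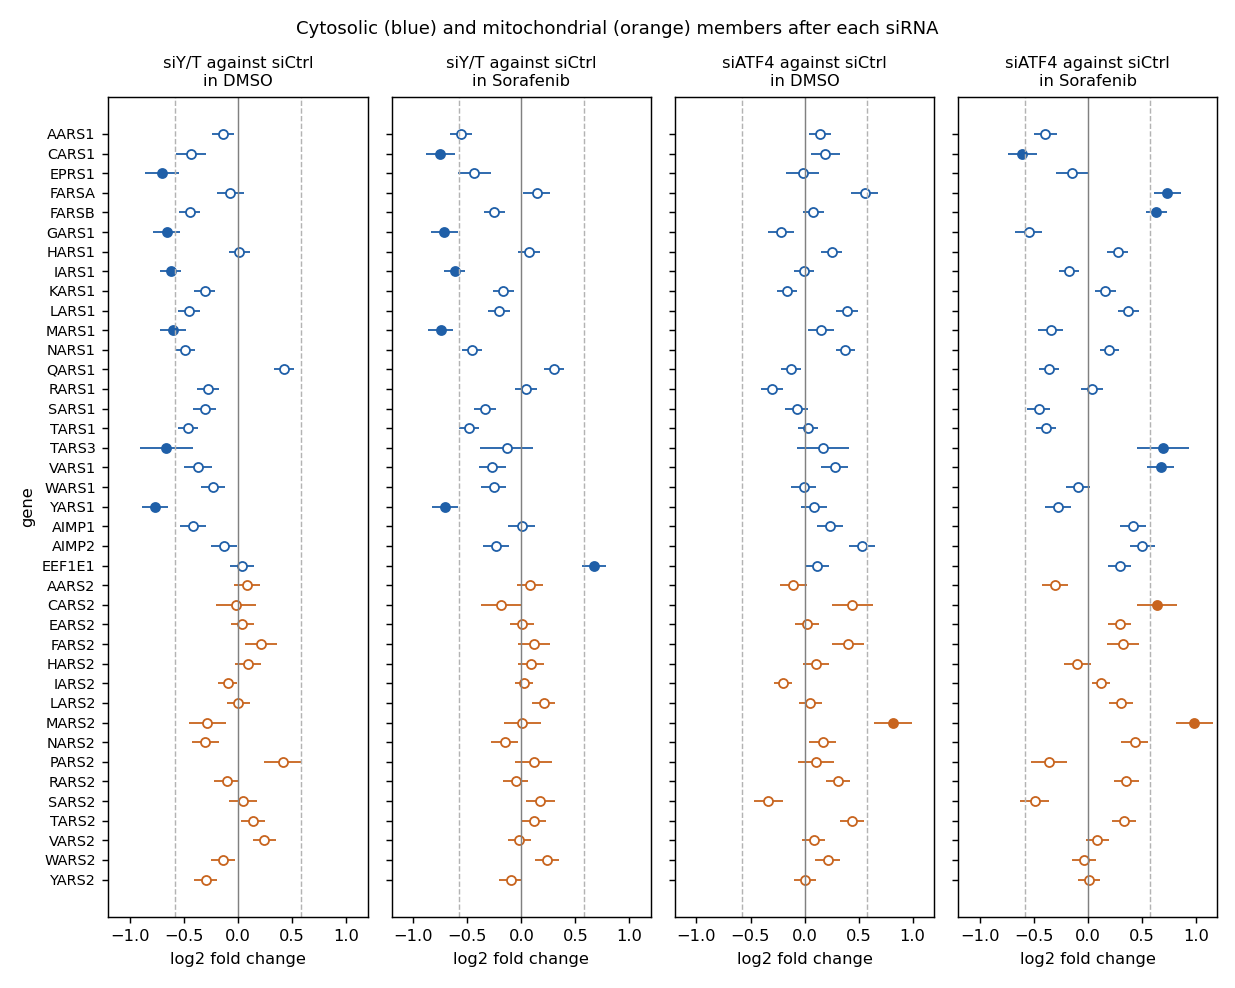
Log2 fold change of each of the 39 members after siY/T or siATF4 against siCtrl, in DMSO and in Sorafenib, cytosolic genes in blue and mitochondrial genes in orange. Bars are 95% confidence intervals of limma, filled points passed an unadjusted P under 0.05 with a log2 fold change of 0.58 or more in size (dashed lines). In the siY/T panels the filled points are all blue, and the cytosolic medians are -0.42 and -0.26 against 0.02 and 0.05 for the mitochondrial genes.

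Genes for the same amino acid in both compartments give a comparison within 13 pairs. The cytosolic fold change lay below the mitochondrial one in 13 of 13 pairs in siY/T DMSO, with a median difference of -0.35, and in 12 of 13 pairs in siY/T Sorafenib, with a median difference of -0.51. With siATF4 the counts were 5 of 13 in DMSO and 9 of 13 in Sorafenib, with median differences of 0.15 and -0.23. MARS1 and MARS2 were the extreme pair, not a typical one. Their difference was the lowest with siATF4 in DMSO (-0.67) and Sorafenib (-1.33), and with siY/T in Sorafenib (-0.76). With siATF4 in Sorafenib MARS1 had a log2 fold change of -0.34 and MARS2 one of 0.99, and with siY/T in Sorafenib the values were -0.75 and 0.01. These pairs are genes of the same libraries and no replicates of a condition, so no test was made on them.

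siATF4 in untreated cells passed the threshold in none of the 23 cytosolic genes, although 14.1% of all genes fell and 8.57% rose. The unadjusted limma P was under 0.05 in 15 of them, a count with no share of all genes beside it. On adjusted P alone 4 were lower and 10 higher, against 34.4% and 33.4% of all genes. edgeR and DESeq2 on the recovered reads gave 0 cytosolic calls as well. One mitochondrial gene rose. MARS2, the mitochondrial methionyl-tRNA synthetase, whose annotated gene lies at GRCh37 chr2:198570093-198573119 on the plus strand, stood at 14.7 and 13.2 CPM in siCtrl DMSO and at 24.6 and 25.4 CPM in siATF4 DMSO, a log2 fold change of 0.82 (SE 0.08, limma adjusted P = 9.93e-07). The medians were 0.12 (cytosolic), 0.11 (mitochondrial) and 0.00 (all genes). FARSA, the catalytic subunit of the phenylalanyl-tRNA synthetase, came closest of the cytosolic genes, from 80.0 and 76.5 CPM to 116 and 115 CPM (log2 fold change 0.56, SE 0.06, limma adjusted P = 1.90e-06).

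In Sorafenib with siATF4, cytosolic genes moved both ways, as did genes of the whole table. Against siCtrl Sorafenib, 1 cytosolic gene fell and 4 rose, where 18.7% of all genes fell and 10.3% rose, and on adjusted P 9 were lower and 11 higher, against 37.4% and 35.8% of all genes. The gene that fell was CARS1, from 168 and 176 CPM to 112 and 113 CPM (log2 fold change -0.61, SE 0.06, limma adjusted P = 1.31e-06), and without siCtrl Sorafenib replicate 2 its -0.57 misses the threshold. GARS1 was next, at 288 and 286 CPM in siATF4 Sorafenib (log2 fold change -0.55), then SARS1 (serine, -0.45), AARS1 (-0.39) and TARS1 (threonine, -0.39), none of which reached the fold threshold. Both subunits of the phenylalanyl-tRNA synthetase rose. FARSA stood at 58.9 and 64.1 CPM in siCtrl Sorafenib and at 96.9 and 108 CPM in siATF4 Sorafenib (log2 fold change 0.73, SE 0.06, limma adjusted P = 1.00e-07). FARSB stood at 81.7 and 77.3 CPM against 123 and 124 (log2 fold change 0.64, SE 0.04, limma adjusted P = 3.41e-08).

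VARS1, the valyl-tRNA synthetase, rose likewise, from 212 and 222 CPM to 332 and 363 CPM (log2 fold change 0.68, SE 0.06, limma adjusted P = 2.57e-07), and TARS3 from 2.10 and 1.93 CPM to 3.66 and 3.49 CPM (log2 fold change 0.70, SE 0.11). In the mitochondrial set 2 genes rose and none fell, where 10.3% of all genes rose and 18.7% fell. MARS2 stood at 9.56 and 9.97 CPM in siCtrl Sorafenib and at 18.9 and 20.8 CPM in siATF4 Sorafenib, a log2 fold change of 0.99 (SE 0.08, limma adjusted P = 1.23e-07). CARS2, for cysteine, stood at 8.99 and 7.69 CPM against 12.6 and 14.0 (log2 fold change 0.64, SE 0.09, limma adjusted P = 1.62e-05), and without siCtrl Sorafenib replicate 2 or siATF4 Sorafenib replicate 2 its values lay between 0.54 and 0.57. The medians were 0.04 (cytosolic), 0.21 (mitochondrial) and -0.01 (all genes).

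**Figure D3:**
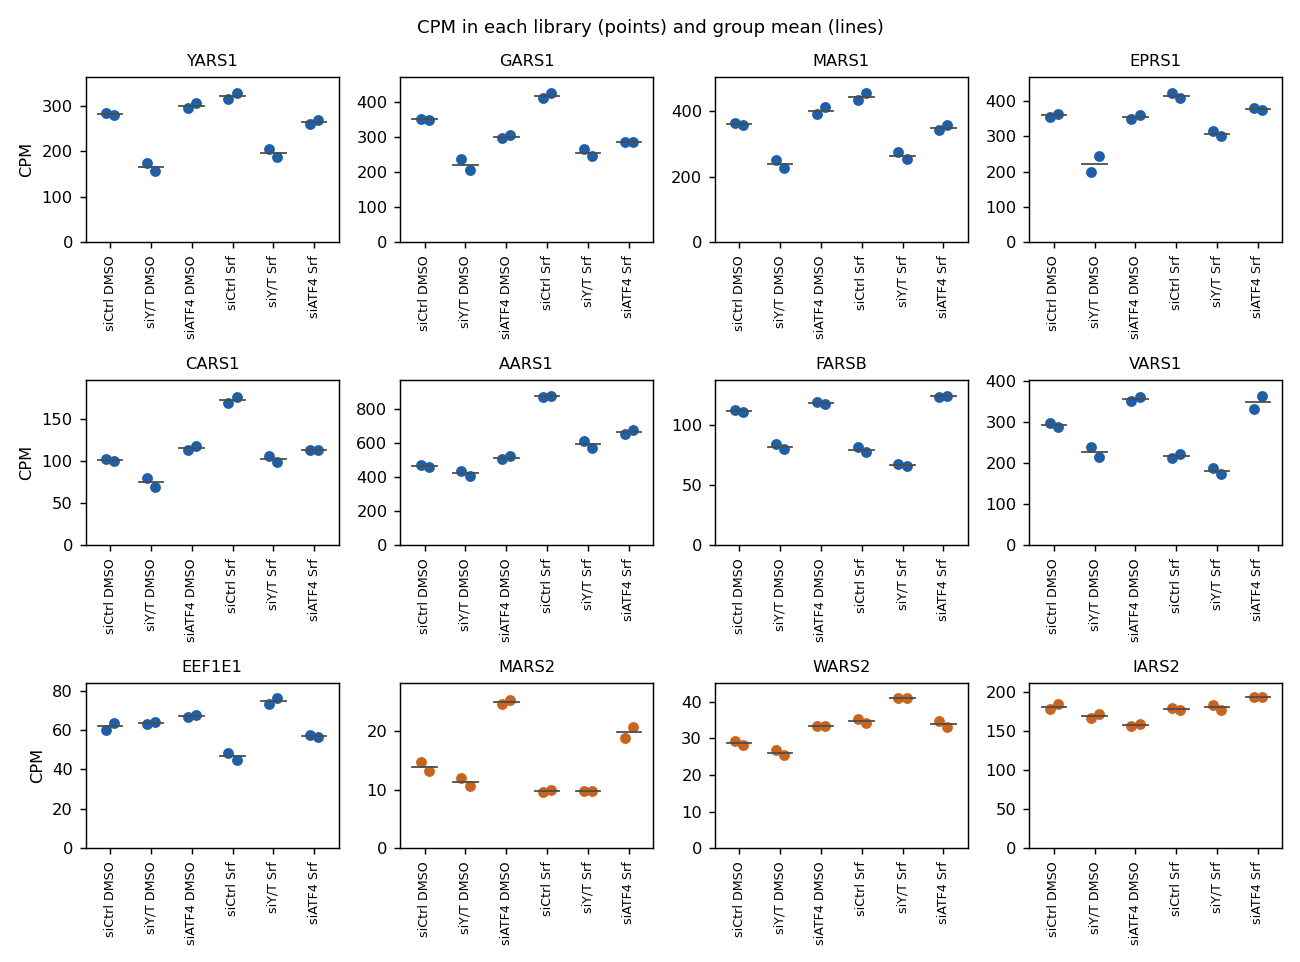
CPM of 12 members in each of the 12 libraries (points) with the mean of each group (lines), the axes starting at 0. Cytosolic genes are blue and mitochondrial genes orange. YARS1, GARS1 and MARS1 are lowest in the siY/T groups, FARSB and VARS1 stay high in siATF4 Sorafenib, and MARS2 is highest in both siATF4 groups.

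MARS1 needs a caution. Its exons overlap those of DDIT3 on the opposite strand, and the strand setting of the authors' counting is not given in the sources used here. DDIT3, the stress factor CHOP, stood at 26.2 and 25.3 CPM in siCtrl DMSO, 108 and 107 in siATF4 DMSO, 23.4 and 22.8 in siY/T DMSO, 80.6 and 77.6 in siCtrl Sorafenib, 97.0 and 101 in siATF4 Sorafenib and 42.9 and 44.9 in siY/T Sorafenib, always well below MARS1. AIMP2 overlaps EIF2AK1 and HARS1 overlaps HARS2 in the same way, as do YARS1 and S100PBP, AARS1 and DDX19B, AIMP1 and TBCK, KARS1 and TERF2IP, CARS2 and ING1, and EARS2 and UBFD1, and in all 12 members share exon bases with a gene on the opposite strand and 5 with one on the same strand.

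The direct comparison of the knockdowns, added after the values were seen, tests the difference between siY/T and siATF4 without siCtrl. In DMSO 12 cytosolic genes were lower in siY/T and none higher, where 13.0% of all genes were lower and 22.7% higher by the same rule, and on adjusted P 20 were lower and 1 higher, against 34.6% and 42.7%. NARS1, for asparagine, differed most, with 164 CPM in both siY/T DMSO libraries and 297 and 303 CPM in siATF4 DMSO (log2 fold change -0.87, SE 0.04, limma adjusted P = 5.29e-10). YARS1 (-0.86), LARS1 (leucine, -0.85), MARS1 (-0.75) and EPRS1 (-0.68) were also lower. Among mitochondrial genes MARS2 passed, at -1.11. Of these calls those of CARS1, VARS1 and AIMP2 were lost without siY/T DMSO replicate 2 and that of EPRS1 without siY/T DMSO replicate 1.

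In Sorafenib 7 cytosolic genes were lower in siY/T than in siATF4 and 1 was higher, against 14.8% and 23.7% of all genes, and on adjusted P 17 were lower and 3 higher, against 35.8% and 43.0%. VARS1 (-0.94) and FARSB (-0.88) led the lower genes, and QARS1 was higher, at 389 and 407 CPM against 245 and 258 (log2 fold change 0.66). The log2 difference was -0.44 for IARS1, -0.43 for YARS1 and -0.40 for MARS1. It was -0.14 for CARS1 (95% confidence interval -0.28 to -0.01, limma adjusted P = 0.0503), -0.17 for GARS1 (-0.29 to -0.04) and -0.17 for AARS1 (-0.27 to -0.07). In the mitochondrial set MARS2, CARS2 and NARS2 were lower and SARS2 higher in siY/T, and calls lost without 1 siY/T or siATF4 Sorafenib library were those of FARSA, LARS1 and NARS2.

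With Sorafenib the cytosolic genes of siCtrl cells moved both ways. Against siCtrl DMSO 2 cytosolic genes rose and none fell, where 12.3% of all genes rose and 5.15% fell, and on adjusted P all 23 passed, 12 higher and 11 lower, against 36.3% and 26.9% of all genes. AARS1 (GRCh37 chr16:70285886-70323610, minus strand) stood at 472 and 459 CPM in siCtrl DMSO and at 871 and 873 CPM in siCtrl Sorafenib, a log2 fold change of 0.91 (SE 0.05, limma adjusted P = 1.09e-08). CARS1 stood at 102 and 100.3 CPM against 168 and 176 (log2 fold change 0.76, SE 0.06, limma adjusted P = 3.54e-07). QARS1 (0.46) and SARS1 (0.37) followed below the threshold. At the lower end TARS3 (-0.56), FARSB (-0.49), RARS1 (arginine, -0.48) and VARS1 (-0.43) did not reach it either. With a pseudocount of 0.1, TMM or quantile scaling, edgeR or DESeq2, TARS3 passed as well, so that the split was 1 lower and 2 higher. No mitochondrial gene passed by limma, edgeR or DESeq2, 10 had an unadjusted limma P under 0.05, and the medians were 0.11 (cytosolic), -0.03 (mitochondrial) and 0.05 (all genes).

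In siATF4 cells Sorafenib brought no cytosolic gene past the threshold, with 2.95% of all genes lower and 5.68% higher, by limma, edgeR and DESeq2 alike. An unadjusted limma P under 0.05 was found in 13, of which 10 were lower and 3 higher on adjusted P, against 22.4% and 27.9% of all genes. AARS1 stood at 503 and 523 CPM in siATF4 DMSO and at 652 and 678 CPM in siATF4 Sorafenib, a log2 fold change of 0.37. CARS1 stood at 113 and 118 CPM against 112 and 113 (log2 fold change -0.03, 95% confidence interval -0.17 to 0.10). AARS2, the mitochondrial alanyl-tRNA synthetase, fell, from 43.8 and 44.9 CPM to 30.1 and 28.1 CPM (log2 fold change -0.60, SE 0.06, limma adjusted P = 3.12e-06), and lost its call without replicate 2 of either group (-0.58 to -0.55). In siY/T cells no cytosolic gene passed, with 4.14% of all genes lower and 5.83% higher, by limma, edgeR and DESeq2 alike. An unadjusted limma P under 0.05 was found in 20, and on adjusted P 6 were lower and 13 higher, against 23.5% and 29.5% of all genes. AARS1 had a log2 fold change of 0.48 and CARS1 one of 0.45 there. WARS2, for tryptophan, rose from 26.7 and 25.4 CPM to 40.9 and 41.0 CPM (log2 fold change 0.64, SE 0.05, limma adjusted P = 7.20e-07).

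**Figure D4:**
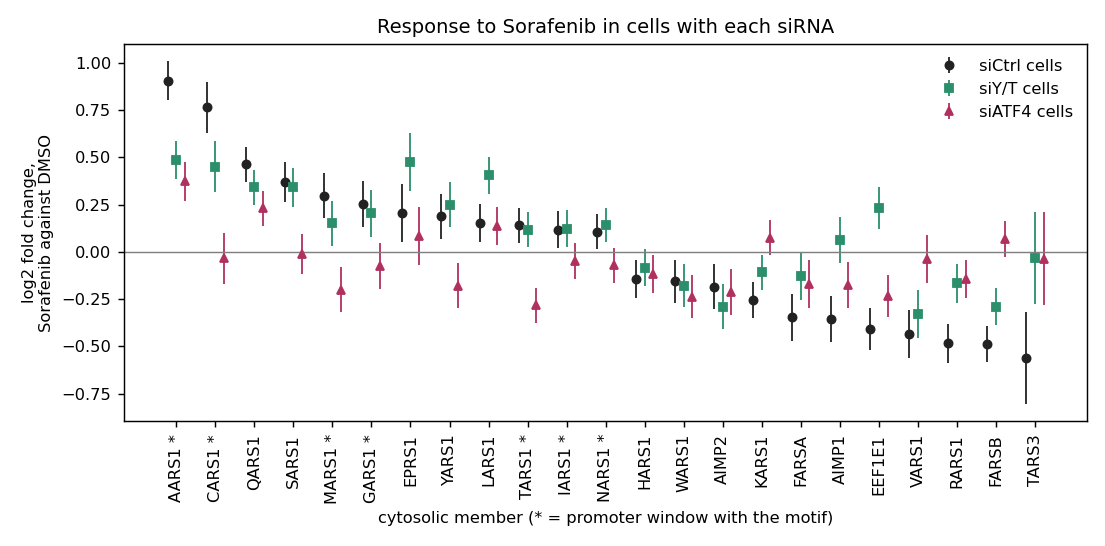
Log2 fold change of the 23 cytosolic members with Sorafenib against DMSO in siCtrl (black circles), siY/T (green squares) and siATF4 cells (red triangles), ordered by the siCtrl value. Bars are 95% confidence intervals of limma, and an asterisk marks a gene whose promoter window holds TGATGNAA. The siCtrl values run from 0.91 for AARS1 to -0.56 for TARS3, and the siATF4 values from 0.37 to -0.28.

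Whether the Sorafenib response differed with ATF4 knocked down was tested by the interaction, called at an adjusted P under 0.05 with no fold threshold. It was lower in siATF4 cells for 10 cytosolic genes and higher for 5, where 21.8% of all genes were lower and 19.3% higher. The lower genes were CARS1 (-0.80), AARS1 (-0.53), MARS1 (-0.50), TARS1 (-0.42), SARS1 (-0.38), YARS1 (-0.37), GARS1 (-0.33), QARS1 (-0.23), NARS1 (-0.18) and IARS1 (-0.17). The higher genes were FARSB (0.56), TARS3 (0.52), VARS1 (0.40), RARS1 (0.34) and KARS1 (0.33). For FARSB the level fell in siCtrl cells, from 113 and 111 CPM to 81.7 and 77.3, and stood at 119 and 117 CPM and then 123 and 124 in siATF4 cells. IARS1, with a limma adjusted P of 0.0463, and NARS1, with 0.0305, stood nearest the threshold. Both lost the call in all 8 fits that left out a library and by DESeq2. IARS1 also lost it by edgeR, with TMM scaling and with no filter on low values. TARS3 lost its call in 4 of the 8 fits that left out a library and by DESeq2.

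In the mitochondrial set the same interaction was lower for PARS2 (-0.47) and WARS2 (-0.25) and higher for IARS2 (0.32), EARS2 (glutamate, 0.27), NARS2 (0.26) and LARS2 (leucine, 0.25). These were 2 lower and 4 higher of the 16 genes, where 21.8% of all genes were lower and 19.3% higher. PARS2 stood at 6.04 and 5.86 CPM in siCtrl DMSO, 8.61 and 8.43 in siCtrl Sorafenib, 6.36 and 6.54 in siATF4 DMSO and 6.31 and 6.76 in siATF4 Sorafenib. IARS2, for isoleucine, stood at 178 and 184, 179 and 177, 156 and 159, and 194 and 193 CPM in the same order of groups. EARS2 stood at 69.2 and 70.9, 63.0 and 63.5, 72.3 and 70.2, and 76.3 and 79.0 CPM. Of the 8 fits that left out a library, NARS2 lost its call in 4, WARS2 in 4 and LARS2 in 1 (without siATF4 DMSO replicate 1, 0.22), and WARS2 lost it by DESeq2 as well. With quantile normalization 1 mitochondrial gene was lower and 6 were higher, PARS2 losing its call at -0.32.

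The interaction with siY/T was lower for 2 cytosolic genes and higher for 6, against 14.2% and 7.81% of all genes. AARS1 (-0.42, SE 0.07, limma adjusted P = 0.00114) and CARS1 (-0.31, limma adjusted P = 0.0241) were lower. EEF1E1 (0.64), TARS3 (0.53), AIMP1 (0.42), RARS1 (0.32), LARS1 (0.25) and FARSB (0.20) were higher. EEF1E1 stood at 60.1 and 63.8 CPM in siCtrl DMSO and 48.5 and 44.7 in siCtrl Sorafenib, but at 63.1 and 63.9 in siY/T DMSO and 73.3 and 76.1 in siY/T Sorafenib, and AIMP1 at 52.4 and 50.6, 40.3 and 39.9, 37.0 and 39.7, and 38.2 and 42.2 CPM. Of the mitochondrial genes WARS2 was higher (0.37) and VARS2, for valine, lower (-0.26). WARS2 stood at 29.4 and 28.1 CPM in siCtrl DMSO and 35.2 and 34.1 in siCtrl Sorafenib, and VARS2 at 55.6 and 53.5 and at 59.1 and 62.1 CPM, against 63.8 and 65.3 in siY/T DMSO and 58.0 and 61.7 in siY/T Sorafenib. Without 1 library CARS1, FARSB, LARS1, TARS3 and VARS2 each lost the call in 1 or more fits.

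Split by the promoter letters shown above, the 7 cytosolic genes with TGATGNAA and the 12 without it had different medians in several comparisons. In Sorafenib against DMSO in siCtrl cells all 7 were higher on adjusted P (median 0.25). Of the 12 others 9 were lower and 3 higher (median -0.22), where 26.9% of all genes were lower and 36.3% higher. With siATF4 in Sorafenib 6 of the 7 were lower and 1 higher on adjusted P (median -0.39). Of the 12, 2 were lower and 7 higher (median 0.22), where 37.4% of all genes were lower and 35.8% higher. The siATF4 interaction was lower for 7 of 7 (median -0.42) and, among the 12, lower for 2 and higher for 3 (median 0.10). By the same test 21.8% of all genes were lower and 19.3% higher. Of the 7, IARS1 and NARS1 lost this call by DESeq2 and in every fit that left out a library. IARS1 also lost it by edgeR, with TMM scaling and with no filter on low values. With siATF4 in DMSO the order was not the same: of the 7, 1 was lower and 4 higher on adjusted P (median 0.14). Of the 12, 3 were lower and 4 higher (median 0.04), where 34.4% of all genes were lower and 33.4% higher. With siY/T the 7 had medians of -0.49 in DMSO and -0.62 in Sorafenib, while the 12 had medians of -0.25 and -0.08. All 7 were lower on adjusted P in both. Of the 12, 7 were lower and 1 higher in DMSO, and 6 were lower and 2 higher in Sorafenib. Among all genes 22.8% (DMSO) and 18.8% (Sorafenib) were lower, and 37.3% and 30.2% higher. The siY/T interaction was lower for 2 of the 7 (median -0.05), and for none of the 12, of which 4 were higher (median 0.17). Here 14.2% of all genes were lower and 7.81% higher. NARS1, which holds the motif, was the exception with siATF4 in Sorafenib, at 252 and 246 CPM in siCtrl and 286 CPM in both siATF4 libraries. The medians describe 19 genes of the same libraries, the split was made with earlier results known, and no test was made. Sorafenib in siCtrl cells, both knockdowns in Sorafenib and both interactions use the same siCtrl Sorafenib libraries. Their splits are therefore not independent of each other. YARS2, the only mitochondrial gene with a match, had log2 fold changes of 0.00 and 0.01 with siATF4 in DMSO and Sorafenib, -0.30 and -0.10 with siY/T, and -0.32 with Sorafenib in siCtrl cells, where the 7 cytosolic genes were higher.

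Genes that work beside the synthetases were taken from lists made by function. Of 14 cytosolic partners of charging and delivery, such as elongation factors and the tRNA exporter, 1 fell and 1 rose with siATF4 in DMSO, where 14.1% of all genes fell and 8.57% rose, and as many in Sorafenib, where the shares were 18.7% and 10.3%. EEF1A2, a tissue-restricted elongation factor, fell from 16.1 and 15.3 CPM to 3.81 and 4.61 in DMSO (log2 fold change -1.79) and from 22.1 and 25.3 to 5.56 and 4.67 in Sorafenib (-2.11). EEF1B2, which recharges that factor with GTP, rose by log2 values of 0.77 and 0.69. Of 13 mitochondrial partners MTIF2, the mitochondrial initiation factor, rose with siATF4 in both (0.75 and 0.74), and in Sorafenib all 13 were higher on adjusted P, against 35.8% of all genes. Of 9 genes that sense uncharged tRNA or carry the signal, EIF2S1, the eIF2α subunit, rose with siATF4 in Sorafenib (0.82), from 86.6 and 85.0 CPM to 154 and 151, as did EIF2B5 (0.69). With siY/T no partner of the 3 lists passed the threshold in DMSO or in Sorafenib. On adjusted P alone 7 of the 14 cytosolic partners were lower in DMSO and 6 in Sorafenib, and none higher. Among all genes 22.8% and 18.8% were lower, and 37.3% and 30.2% higher. XPOT, the tRNA exporter, stood at 310 and 306 CPM against 210 and 212 with siY/T in DMSO. In Sorafenib it stood at 357 and 346 CPM against 248 and 222 (log2 fold change -0.5797, just short of the threshold).

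The genes of largest change among members that passed in no comparison with siCtrl or with DMSO and in neither interaction are given by their largest values. AIMP2 stood at 59.8 and 58.2 CPM in siCtrl DMSO and at 85.1 and 86.2 in siATF4 DMSO, a log2 fold change of 0.53 (SE 0.06, limma adjusted P = 1.85e-06), and its overlap with EIF2AK1 makes it uncertain. EIF2AK1 stood at 199 and 200 CPM and at 151 and 150 CPM in the same groups. SARS2, the mitochondrial seryl-tRNA synthetase, stood at 29.5 and 32.1 CPM in siCtrl Sorafenib and at 20.7 and 22.8 in siATF4 Sorafenib, a log2 fold change of -0.49 (SE 0.06, limma adjusted P = 8.54e-06). HARS1 (histidine) and WARS1 (tryptophan) had small values throughout, with log2 fold changes from -0.14 to 0.28 and from -0.26 to -0.01 over the comparisons with siCtrl and with DMSO.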

How the data were processed

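RNA-seq was made from HLE cells in 6 groups of 2 libraries. Per the labels and methods, the authors aligned single-end reads from stranded poly(A) libraries to GRCh37 with STAR, used QuasR to count unique hits in RefSeq mRNA exons, and deposited CPM values, which scale each library to 1000000 reads. Every deposited CPM value was a whole number of reads within 0.001 read, so reads were recovered for edgeR and DESeq2. The main test was limma 3.58.1 with a mean trend on log2(CPM + 0.5), 1 fit of the 12 libraries, for 13515 genes with at least 1 CPM in 2 libraries. Calls used the thresholds that the study applied with edgeR, unadjusted P under 0.05 with a log2 fold change of 0.58 or more in size, and for the interactions adjusted P under 0.05. edgeR 4.0.16 and DESeq2 1.42.0 were alternatives, with other pseudocounts, filters and scalings, a replicate block, call thresholds and each library left out. The fit was tested on simulated data. Libraries are shown for the 4 cytosolic and 3 mitochondrial called members of largest change in a comparison, and for the member of each class with the largest change among those called in no comparison with siCtrl, none of Sorafenib with DMSO and neither interaction. Others named with values, including those of the comparison of siY/T with siATF4, were chosen after their values were seen. The members and lists were chosen with earlier results of these data known. Gene positions are GENCODE's on GRCh37 and promoter windows RefSeq's on GRCh38.p14. The methods name triplicates, and 2 libraries a group were analysed here.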

Additional observations from a re-analysis of the deposited data

Results flagged for a closer look

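Interaction tests found Sorafenib responses that differed between siRNAs, at a limma adjusted P under 0.05. By these tests 21.8% of all genes were lower and 19.3% higher with siATF4, and 14.2% and 7.81% with siY/T. Between siATF4 and siCtrl cells the log2 difference was -0.80 for CARS1, -0.53 for AARS1, -0.50 for MARS1, -0.47 for PARS2, -0.42 for TARS1, -0.38 for SARS1, -0.37 for YARS1, -0.33 for GARS1, -0.25 for WARS2, -0.23 for QARS1, -0.18 for NARS1 and -0.17 for IARS1. It was 0.56 for FARSB, 0.52 for TARS3, 0.40 for VARS1, 0.34 for RARS1, 0.33 for KARS1, 0.32 for IARS2, 0.27 for EARS2, 0.26 for NARS2 and 0.25 for LARS2. Between siY/T and siCtrl cells it was -0.42 for AARS1, -0.31 for CARS1 and -0.26 for VARS2, and 0.64 for EEF1E1, 0.53 for TARS3, 0.42 for AIMP1, 0.37 for WARS2, 0.32 for RARS1, 0.25 for LARS1 and 0.20 for FARSB. Both interactions use the same siCtrl libraries, so their values for AARS1, CARS1, FARSB, TARS3, RARS1 and WARS2 are not independent. WARS2 had opposite signs in the 2 interactions, -0.25 with siATF4 and 0.37 with siY/T.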

How the results depend on the processing

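Over 80 member calls and all alternative fits no direction reversed. Of 1238 values 1148 kept their call and 90 lost it. Somewhere 28 calls were lost, 26 of them with a library left out and 13 under another setting. The other call thresholds are not among these values. On adjusted P with no fold threshold the counts of cytosolic and mitochondrial calls were 14 and 9 for siATF4 in DMSO, 20 and 12 for siATF4 in Sorafenib, 19 and 9 for siY/T in DMSO, 18 and 4 for siY/T in Sorafenib, 23 and 10, 13 and 5, and 19 and 5 for Sorafenib in siCtrl, siATF4 and siY/T cells, and 21 and 13 (DMSO) and 20 and 14 (Sorafenib) for siY/T against siATF4. With an absolute log2 change of at least 1 and adjusted P the count was 0 everywhere except 1 (MARS2, siY/T against siATF4 in DMSO). Quantile normalization gave 1 mitochondrial call for Sorafenib in siCtrl cells and 2 for siY/T against siATF4 in DMSO. The siY/T interaction gave 5 cytosolic calls with only the groups compared and 4 mitochondrial calls with a filter at 5 CPM. Leaving out each library gave cytosolic counts of 0 to 1 and 4 to 5 (siATF4 in DMSO and Sorafenib), 4 to 6 and 5 to 7 (siY/T), 2 to 3, 0 and 0 to 1 (Sorafenib in siCtrl, siATF4 and siY/T cells), 10 to 12 and 6 to 8 (siY/T against siATF4), 12 to 14 (siATF4 interaction) and 4 to 11 (siY/T interaction), and, in the same order, mitochondrial counts of 1 and 1 to 2, 0 and 0, 0, 0 to 1 and 1, 1 and 3 to 4, 4 to 6 and 1 to 5. Causes were not tested.

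With the replicate number as a block every count was as without it, for example 6 cytosolic calls for siY/T in DMSO and 15 for the siATF4 interaction. Same-numbered libraries deviated together (r over 0.1) in 4 of 15 pairs of groups (range -0.28 to 0.19, median -0.00334). Of 12 libraries 8 correlated best with one of their own number. The 2 libraries of a group deviate from their mean in mirror image and give the same outcome, so this count cannot decide on pairing. Since r was not over 0.1 in every pair, the numbers were not taken to pair the libraries. Among all genes called with siY/T in DMSO the share that fell was 24.7%, 33.6% with TMM and 43.0% with quantile scaling, while the cytosolic members stayed at 6, 6 and 5 lower and 0 higher. With 2 libraries a group, small changes rest on few values.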
